A study of Homo sapiens with 84 samples.

Results

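The genes of the DNA replication machinery were followed in squamous carcinoma cells treated with epidermal growth factor (EGF) or with EpEX, the soluble ectodomain of the epithelial adhesion molecule EpCAM. The set held 43 genes, chosen by name from 58395 annotated genes, and all 43 passed the filter on low counts in both cell lines (of 15350 genes tested in Kyse30 and 16022 in FaDu). They comprised 5 genes of origin licensing, the 6 MCM helicase subunits, 6 genes of helicase activation, 5 of primase and the polymerases, 9 of the sliding clamp, clamp loaders and lagging strand, 4 of nucleotide supply, 4 of histone supply and chromatin, 2 of the fork checkpoint and 2 regulators of S phase entry.

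Kyse30 is a line from an oesophageal squamous cell carcinoma and FaDu an HPV-negative line from a hypopharyngeal one. Both were starved of serum beforehand and throughout, and each condition was collected at 6 h and 72 h. Conditions were no addition (Ctrl, also at 0 h), the Fc fragment that serves as control for EpEX-Fc (Fc), EGF at 1.8 nM (EGFlow), EGF at 9 nM (EGFhigh), EpEX-Fc (EpEX), and EGF given with EpEX-Fc (EGFhigh/EpEX, for which the labels give no concentration). Kyse30 gave 43 libraries, 3 or 4 per condition and time, and FaDu 20 from replicates 3 and 4, with 1 or 2 per condition and time. Nothing in the labels states that replicates were separate cultures on separate days, so p-values measure the spread between these samples.

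Replication begins when the origin recognition complex, CDC6 and CDT1 load the MCM ring onto DNA in G1, which geminin (GMNN) later prevents from happening again. In S phase, CDC45 and the GINS complex turn the ring into the active helicase, primase and DNA polymerase alpha lay down primers, and PCNA, placed by replication factor C, tethers the polymerases. Most of these genes are transcribed periodically under the E2F factors, and their mRNAs are low in cells that have left the cycle, which makes them a common readout of how far a culture is engaged in S phase.

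Promoter sequences from RefSeq (GRCh38.p14, 250 bases before to 50 after the start site) were found for 36 of the 43 genes. They were searched on both strands for the E2F-type letters TTTCCCGC, TTTCGCGC, TTTGCCGC and TTTGGCGC, where forms on opposite strands can overlap and a gene counts once. One of these stood in the promoters of 21 of the 36 (58.3%), against 3.99% of all 27305 genes with a promoter in the same table. The CCAAT box was in 63.9% of them against 39.7% of all genes, and the letters TTTGAA, known as the CHR of mitotic genes, in 2.78% against 18.2%. In 24 genes of mitosis, listed for comparison, the order was the other way round, with E2F-type letters in 8.33% and TTTGAA in 70.8%. A match in such a window is a description of letters and says nothing of binding.

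The stretches below, of at most 30 bases and ending before the RefSeq start site, show the E2F-type letters in capitals, 5′ to 3′ on the strand of the gene. They are given because such letters stand both in genes that passed the test after EGF and in genes that did not: MCM3 (chr6:52284898-52284927, minus strand), GINS2 (chr16:85688967-85688996, minus) and TYMS (chr18:657603-657632, plus) passed the test in the comparison at 72 h described further down, while MCM6 (chr2:135876511-135876540, minus), PCNA (chr20:5126663-5126692, minus) and POLA1 (chrX:24693770-24693799, plus) did not. Among genes with a promoter, the letters stood in 10 of 14 that passed there and in 11 of 22 that did not. The 7-letter forms, without the first T, stood in 11 and 20 of them, and the difference was not tested.
MCM3: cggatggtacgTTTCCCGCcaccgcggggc
GINS2: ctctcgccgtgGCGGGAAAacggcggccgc
TYMS: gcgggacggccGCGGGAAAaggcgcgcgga
MCM6: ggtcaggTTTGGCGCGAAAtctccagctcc
PCNA: cagcgtcagggGCGGGAAAaggcgtgcgtt
POLA1: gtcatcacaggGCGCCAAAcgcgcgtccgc

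Levels are given as CPM, each library's count of a gene divided by its TMM-scaled total and brought to the same common total in all libraries, as edgeR's cpm function gives it. The libraries come from a kit that reads the 3′ end of each transcript, so a count does not grow with transcript length. Kyse30 libraries held between 1944948 and 11759799 counted reads and FaDu libraries between 6217938 and 12442349. A count of 0 would allow 3 counts, which is 0.255 to 1.54 CPM in Kyse30 and 0.241 to 0.482 CPM in FaDu, for counting error only. Over all Kyse30 libraries the median level ran from 5.49 CPM for CCNE2 (cyclin E2, a partner of CDK2 at S phase entry) to 225 CPM for MCM7, and in FaDu from 6.25 CPM for CHAF1B to 476 CPM for MCM4. MCM4, MCM7, RRM1, MCM3 and PCNA were the 5 with the highest medians in both lines, on this scale of transcript ends.

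Both lines carried epithelial transcripts. EPCAM was between 113 and 312 CPM in Kyse30 and EGFR between 1430 and 4840 CPM, while the basal keratin KRT5 was near its floor in Kyse30 (median 2.10 CPM) and clearly present in FaDu (41.7 to 604 CPM). The 4 leukocyte markers PTPRC, CD3E, LYZ and CD79A, the fibroblast marker DCN and the endothelial markers PECAM1 and KDR had a median of 0 in both lines. Other markers of these cells were detected. COL1A1 was 6.96 to 28 CPM in Kyse30 and 4.84 to 12.7 CPM in FaDu, COL1A2 2.05 to 16 CPM and 0.0952 to 0.975 CPM, and the endothelial cadherin CDH5 0 to 6.87 CPM and 0.397 to 8.56 CPM. COL3A1, PDGFRB and VWF stayed at or below 6.78 CPM in every library of both lines.

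A few Kyse30 libraries stood apart. In a principal component analysis of 10196 other genes, the second component (12.3% of the variance) placed EGFhigh replicate 1 at 72 h, EGFhigh/EpEX replicate 3 at 6 h, EGFlow replicate 1 at 72 h and Fc replicate 3 at 72 h at one end, with scores of -69.5, -48.3, -45.2 and -37. These 4 also had the 4 lowest levels of TP63 and of the epithelial cadherin CDH1 in Kyse30. TP63, a transcription factor of squamous cells, was 2.45, 6.11, 2.19 and 2.58 CPM there and 19.3 to 40.1 CPM in the Ctrl libraries of 72 h. Counts for the Kyse30 comparisons that hold EGFhigh at 72 h are given with and without these 4 libraries, a choice made after the profiles were seen. Other comparisons that hold one of them are given with all libraries. The cut was made at this end of the component only. Fc replicate 2 at 72 h and Fc replicate 1 at 6 h lay furthest at the other end, at 38.5 and 35.4, and were kept. Without the 4 libraries, EGFhigh at 72 h was left with replicates 3 and 4 only.

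The replicate number also went along with the level of the replication genes in Kyse30. Relative to the mean of the Ctrl libraries of 6 h, the median over the 43 genes in the replicate 4 libraries was -0.26 log2 units in Ctrl at 0 h and between -0.53 and -0.06 in the 6 conditions at 6 h. Replicates 1, 2 and 3 lay between -0.19 and 0.39 at the same times. Ctrl at 72 h has no replicate 4 and EGFhigh at 72 h does, and at 72 h the replicate 4 libraries of EGFlow and EpEX had medians of -0.03 and -0.29. The part of the replicate number in the results was not tested beyond a fit with the number as a block.

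**Figure D1:**
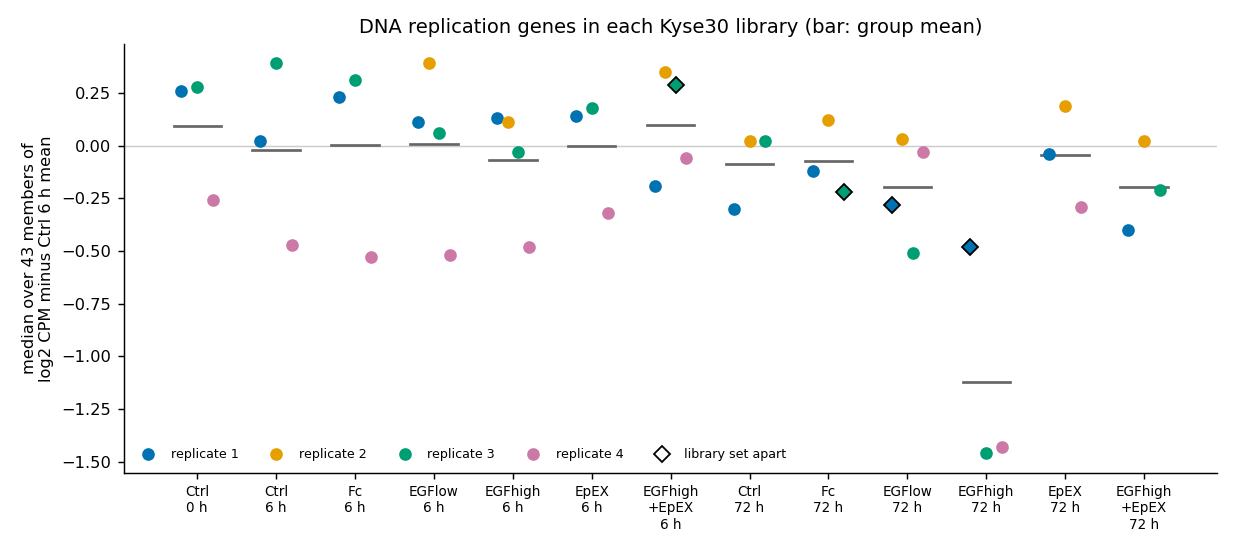
Each point is 1 Kyse30 library: the median over the 43 replication genes of the log2 CPM minus that gene's mean in the Ctrl libraries of 6 h (vertical axis, log2 units), by condition and time (horizontal axis), coloured by replicate number, with bars for group means and outlined diamonds for the 4 libraries set apart. EGFhigh replicates 3 and 4 of 72 h lie at -1.46 and -1.43, below all other libraries, and EGFhigh replicate 1 at -0.48 lies within the -0.53 to 0.39 of the remaining ones.

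None of the 43 genes passed the test over time without addition, with all Kyse30 libraries in the fit. From 0 h to 6 h without addition, 0 of the 43 genes passed the edgeR test, which asked for a Benjamini-Hochberg adjusted p no higher than 0.05 together with a log2 fold change beyond 0.5 in size, with 0% of all genes called, 0 members at an unadjusted p under 0.05 and 0 called by DESeq2. From 6 h to 72 h again 0 of 43 passed (1.55% of all genes, 2 members at an unadjusted p under 0.05, 0 by DESeq2), and the median log2 fold change was -0.17, against 0.02 over all genes tested.

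RRM2, the regulated subunit of ribonucleotide reductase, and TK1, the thymidine kinase of the salvage pathway, both of which supply deoxynucleotides, had the lowest p between 6 h and 72 h in Ctrl. RRM2 was 101, 149 and 62.0 CPM at 6 h and 52.1, 48.1 and 49.5 CPM at 72 h. TK1 was 108, 94.1 and 69.9 CPM at 6 h and 55.4, 55.9 and 55 CPM at 72 h. All 3 later libraries were below all 3 earlier ones for both genes, yet neither passed (adjusted p = 0.157 for RRM2 and 0.166 for TK1), and no other member was separated downwards (10.1% of all genes were).

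Genes of mitosis did pass over the same interval. Of 30 genes of the mitosis list, 7 fell between 6 h and 72 h without addition, where 0.775% of all genes fell, and all 30 had a negative log2 fold change, with a median of -1.01. PTTG1 (securin) changed by -1.32 and PLK1, the polo-like kinase, by -1.42. Of 44 further replication genes only RRM2B, a subunit of ribonucleotide reductase, fell (-1.70, adjusted p = 0.0227), and the list had a median of -0.15. The difference between the lists was not tested.

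At 6 h of treatment in Kyse30 the replication genes did not pass the test in any of 4 comparisons. EGFlow against Ctrl, EGFhigh against Ctrl, EpEX against Fc and EGFhigh/EpEX against Fc each gave 0 of 43, where 1.5%, 2.55%, 0.0261% and 4.52% of all genes were called. At an unadjusted p under 0.05 there were 2, 2, 0 and 3 members, DESeq2 called 0 in each, and the medians of the log2 fold change were -0.04, -0.07, -0.07 and -0.01. SLBP, TIPIN and UHRF1 were higher in every EGFlow library than in every Ctrl library without passing (6.68% of all genes were so separated), and SLBP and TIPIN likewise in EGFhigh (7.22%). The comparisons of EGFlow and EGFhigh share their Ctrl libraries, and those of EpEX and EGFhigh/EpEX their Fc libraries.

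SLBP binds the stem-loop at the end of histone mRNAs and lets histones be made in S phase. It was 22.1, 28.7 and 15.6 CPM in the Ctrl libraries of 6 h and 45.5, 30.9, 28.7 and 32.8 CPM in EGFhigh. The groups met at 28.7 CPM as rounded here (log2 fold change 0.63, SE 0.30, adjusted p = 0.290). In the Fc libraries of 6 h SLBP was 49.0, 29.2 and 27.5 CPM, a range that overlaps those of both Ctrl and EGFhigh.

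E2F1, which drives transcription of most of the set, had 27.2, 36.4, 69.4 and 25.6 CPM in EGFhigh/EpEX at 6 h and 15.2, 25.0 and 12 CPM in Fc. E2F1, GINS3 and LIG1 were higher in all 4 of these libraries than in all 3 Fc libraries (7.97% of all genes were). The highest E2F1 value belongs to replicate 3, a library set apart, and the log2 fold change of 1.2 (SE 0.46) did not pass (adjusted p = 0.126). PRIM1, the catalytic subunit of primase, had the lowest p there and the opposite sign, with 4.55, 6.85, 3.78 and 7.79 CPM against 26.2, 8.47 and 6.80 CPM (log2 fold change -1.27, SE 0.46, adjusted p = 0.102). A single Fc library, replicate 1, accounts for the high level in the Fc group.

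After 72 h with EGFhigh the replication genes were lower. In Kyse30, 15 of 43 (34.9%) fell relative to Ctrl, none rose, and 41 had a negative log2 fold change, while 3.16% of all 15350 genes fell and 3.04% rose. The median was -0.88 log2 units against -0.03 over all genes, and 28 members had an unadjusted p under 0.05. In 21 members all 3 EGFhigh libraries were below all 3 Ctrl libraries, which held for 12% of all genes, and in no member was it the other way (10.9% of all genes). As these are bulk libraries, fewer cells in S phase and less mRNA in each such cell cannot be told apart. Mitochondrial reads made up 11.8%, 12.9% and 11.7% of the EGFhigh libraries and 9.08%, 8.86% and 12.4% of the Ctrl libraries, and their part in the result was not tested.

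**Figure D2:**
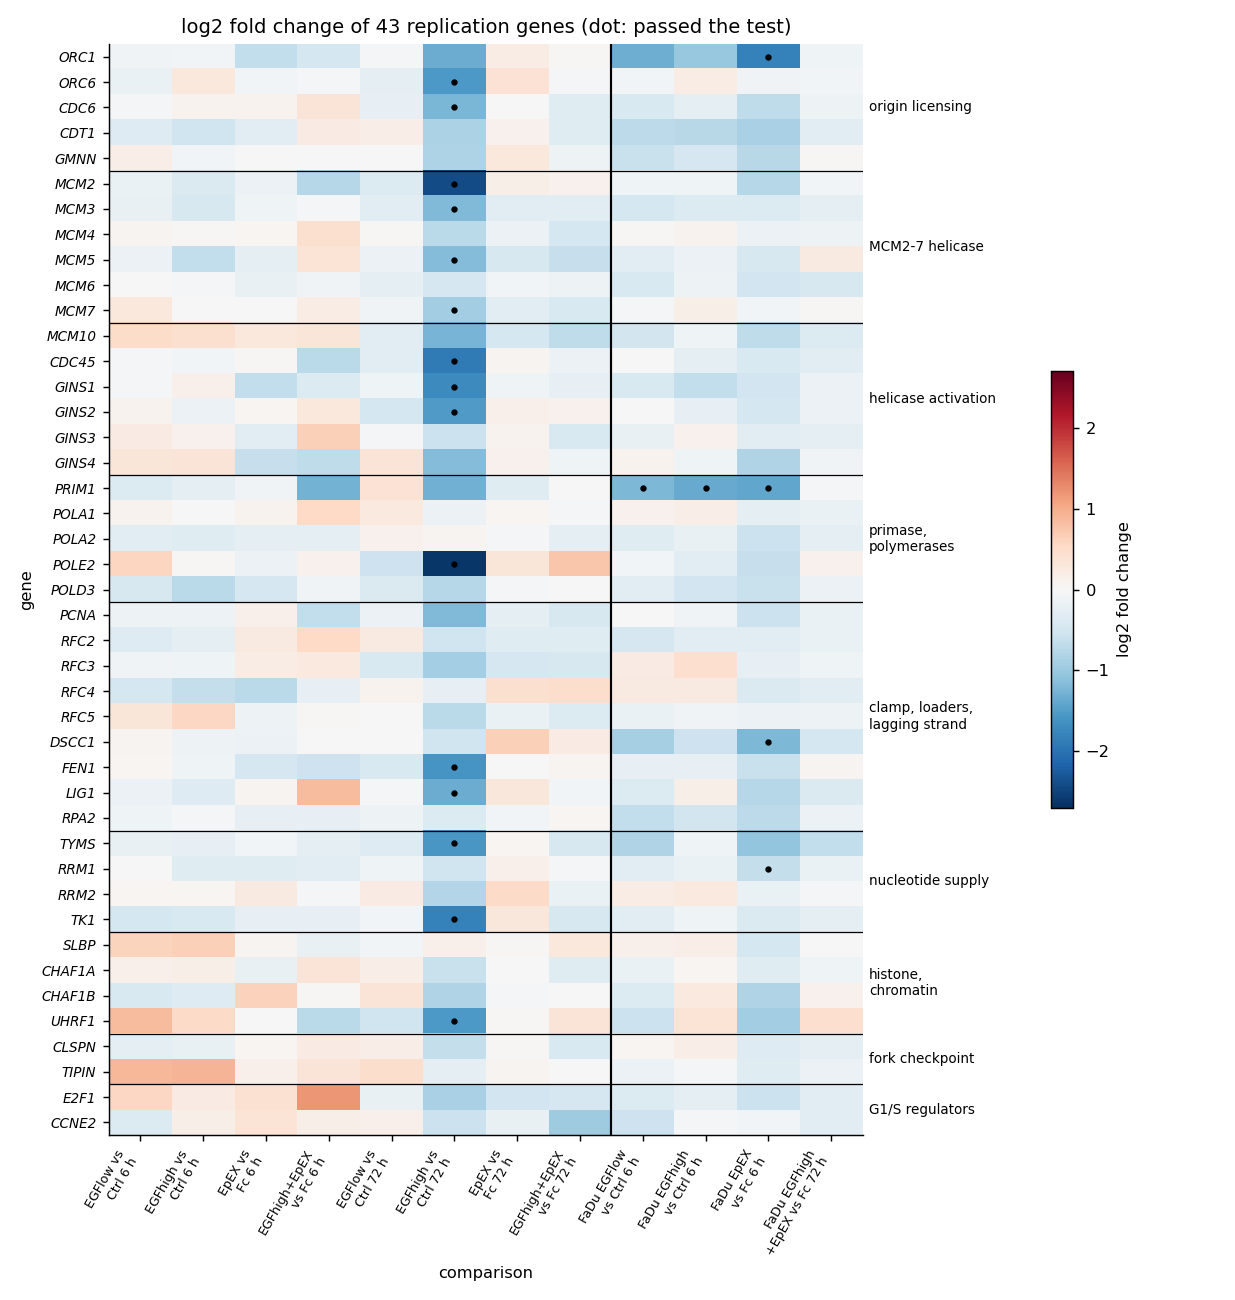
Rows are the 43 genes in order of role and columns are 8 comparisons in Kyse30 and 4 in FaDu, with the log2 fold change in colour (blue lower, red higher) and a dot where the test was passed. Dots stand in the column of EGFhigh against Ctrl at 72 h for 15 genes in Kyse30, and in FaDu at 6 h for PRIM1 in 3 columns and for ORC1, DSCC1 and RRM1 after EpEX.

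Nucleotide supply held the gene with the lowest p. TK1 was 55.4, 55.9 and 55 CPM in Ctrl and 24.3, 9.09 and 13.0 CPM in EGFhigh at 72 h, in the order of replicates 1, 2, 3 and 1, 3, 4. The Ctrl libraries were nearly equal (55.5 ± 0.449 CPM, SD, n = 3) and every EGFhigh library was below them (15.4 ± 7.88 CPM, SD, n = 3). TK1 fell by 1.83 on the log2 scale (SE 0.26, adjusted p = 1.1e-05) and stayed called with each library left out in turn, with log2 fold changes of -1.56 to -2.31. The gene lies at chr17:78174075-78187233 on the minus strand of GRCh38.

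TYMS, thymidylate synthase, which makes dTMP from dUMP, was 53.3, 57.2 and 79.1 CPM in Ctrl and 27.3, 16.6 and 19.6 CPM in EGFhigh, again without overlap (log2 fold change -1.57, SE 0.36, adjusted p = 0.00465). Its 3′ end overlaps that of ENOSF1 on the opposite strand, which itself fell (-0.93, SE 0.29, adjusted p = 0.0465), and the strand setting of the counting is not given in the sources used here. RRM1 (-0.54, adjusted p = 0.222) and RRM2 (-0.78, adjusted p = 0.242) did not pass.

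All 6 subunits of the MCM ring, the helicase that unwinds DNA ahead of the fork, had negative log2 fold changes, and MCM2, MCM3, MCM5 and MCM7 fell. MCM2 (chr3:127598223-127622436, plus strand) was 113, 82.2 and 121 CPM in Ctrl and 3.97, 31.0 and 24.5 CPM in EGFhigh, a fall of 2.42 on the log2 scale (SE 0.56, adjusted p = 0.00449). AC023593.1, which overlaps the 3′ end of MCM2 on the opposite strand, was not analysed here. The groups did not overlap, and the lowest value was that of EGFhigh replicate 1, one of the libraries set apart. EGFlow replicate 1, another of them, had 11.6 CPM of MCM2 beside 137, 95.7 and 82.5 CPM in its group. MCM3, MCM5 and MCM7 changed by -1.19, -1.18 and -0.94, and all 3 calls were lost in a fit of the 2 groups alone (-1.17 for MCM5). With each library left out in turn, MCM7 ranged from -1.6 to -0.66 and MCM3 from -1.58 to -0.97. The MCM5 call was kept without Ctrl replicate 1 and lost without any other of the 6 libraries and with the replicate number as a block (-0.92). MCM4 (-0.73, adjusted p = 0.0802) and MCM6 (-0.45, adjusted p = 0.458) did not pass.

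In origin licensing, ORC6 and CDC6 fell out of 5 genes, and all 5 had an unadjusted p under 0.05. ORC6, the smallest subunit of the origin recognition complex, was 16.2, 32.4 and 12.3 CPM in Ctrl and 8.16, 8.56 and 4.14 CPM in EGFhigh (log2 fold change -1.54, SE 0.41, adjusted p = 0.0159). CDC6, the ATPase that recruits the MCM ring with CDT1, changed by -1.23 (SE 0.38, adjusted p = 0.0434). The CDC6 call was lost without any 1 of the 6 libraries (-1.31 to -1.09) and when replicate number entered the fit as a block (-0.87). The other 3 had values of -1.33 for ORC1 (adjusted p = 0.105), -0.85 for CDT1 (adjusted p = 0.0829) and -0.83 for the CDT1 inhibitor GMNN (adjusted p = 0.132).

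Helicase activation had the lowest median of the role groups with more than 2 genes, -1.39. CDC45, which joins the MCM ring at the fork, was 15.7, 32.1 and 27.4 CPM in Ctrl and 3.85, 10.2 and 5.99 CPM in EGFhigh (log2 fold change -1.92, SE 0.49, adjusted p = 0.0114). GINS1 was 13.0, 16.2 and 17.6 CPM in Ctrl and 7.11, 1.96 and 4.85 CPM in EGFhigh (-1.71, SE 0.43, adjusted p = 0.0102). GINS2 was 24.2, 43.5 and 27.8 CPM in Ctrl and 15.4, 9.81 and 7.71 CPM in EGFhigh (-1.52, SE 0.32, adjusted p = 0.00158). These 3 genes encode partners in one complex, and none overlapped between the groups. GSE1, whose annotated exons overlap the 3′ end of GINS2 on the opposite strand, had a log2 fold change of -0.02 (adjusted p = 0.985). MCM10 (-1.25, adjusted p = 0.0558), GINS4 (-1.16, adjusted p = 0.0671) and GINS3 (-0.58, adjusted p = 0.521) did not pass.

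Of the 5 genes of primase and the polymerases, POLE2 fell. POLE2, the second subunit of the leading-strand polymerase epsilon, had the largest change of the whole set, from 3.91, 11.1 and 8.18 CPM in Ctrl to 1.17, 1.25 and 1.28 CPM in EGFhigh (log2 fold change -2.62, SE 0.64, adjusted p = 0.00824). This call was lost in a fit of the 2 groups alone. The EGFhigh values are a few counts above the floor, and outside the comparison single libraries of Fc and EpEX at 72 h were as low as 1.61 and 1.83 CPM. POLA1 and POLA2, the catalytic and accessory subunits of polymerase alpha, did not pass, and their values rest on EGFhigh replicate 1, a library set apart. POLA1 was 10.8, 8.20 and 18.8 CPM in Ctrl and 19.9, 6.78 and 6.85 CPM in EGFhigh (-0.15, SE 0.45, adjusted p = 0.904). POLA2 was 16.5, 7.44 and 18.8 CPM in Ctrl and 32.0, 6.60 and 5.99 CPM in EGFhigh (0.07, SE 0.51, adjusted p = 0.968). In both genes the EGFhigh library above every Ctrl library was replicate 1, and without it the log2 fold changes were -0.87 for POLA1 and -1.17 for POLA2, neither of which passed. Without other single libraries POLA1 ranged from -0.37 to 0.24 and POLA2 from -0.22 to 0.45. PRIM1 (-1.30, adjusted p = 0.141) and POLD3 (-0.77, adjusted p = 0.208) did not pass.

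Among the 9 genes of the clamp, its loaders and the lagging strand, FEN1 and LIG1 fell. FEN1, the nuclease that trims the flaps of Okazaki fragments, was 86.8, 113 and 100 CPM in Ctrl and 40.0, 31.7 and 27.1 CPM in EGFhigh (log2 fold change -1.60, SE 0.38, adjusted p = 0.00646). LIG1, the ligase that seals them, changed by -1.33 (SE 0.36, adjusted p = 0.0167). FEN1 showed a wide gap between the groups. PCNA, the clamp itself, had -1.20 (adjusted p = 0.0789), and the clamp loader genes RFC2, RFC3, RFC4 and RFC5 and DSCC1 ranged from -0.92 to -0.22 without passing, as did RPA2 of the single-strand binding protein (-0.36, adjusted p = 0.579).

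Of the 4 histone and chromatin genes, UHRF1 fell. UHRF1 guides maintenance DNA methylation behind the fork, and it was 7.44, 14.3 and 9.41 CPM in Ctrl and 3.38, 2.85 and 4.28 CPM in EGFhigh (log2 fold change -1.55, SE 0.45, adjusted p = 0.0278). UHRF1 did not pass with the replicate number as a block (-1.23), in a fit of the 2 groups alone (-1.54) or without EGFhigh replicate 1 or 3 or Ctrl replicate 2 or 3. SLBP stood at 25.3, 21.8 and 28.6 CPM in Ctrl and 27.3, 26.0 and 30.3 CPM in EGFhigh (0.14, SE 0.31, adjusted p = 0.868). SLBP and POLA2 were the only members with a positive sign in the comparison, and POLA2 had a negative one without EGFhigh replicate 1 or without Ctrl replicate 2. CHAF1A and CHAF1B, which deposit histones on new DNA, had -0.59 (adjusted p = 0.337) and -0.81 (adjusted p = 0.424).

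No gene of the fork checkpoint or of S phase entry passed. E2F1 was 10.5, 28.6 and 19.8 CPM in Ctrl and 19.7, 6.60 and 5.14 CPM in EGFhigh (-0.88, SE 0.49, adjusted p = 0.329). CLSPN, claspin, which carries the checkpoint signal from ATR to CHK1, was 30.4, 37.2 and 27.2 CPM in Ctrl and 41.3, 7.85 and 10.4 CPM in EGFhigh (-0.65, SE 0.49, adjusted p = 0.498). In each gene replicates 3 and 4 of EGFhigh were below the Ctrl libraries and replicate 1 was within or above them. TIPIN had -0.24 (adjusted p = 0.868) and CCNE2 -0.58 (adjusted p = 0.681).

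**Figure D3:**
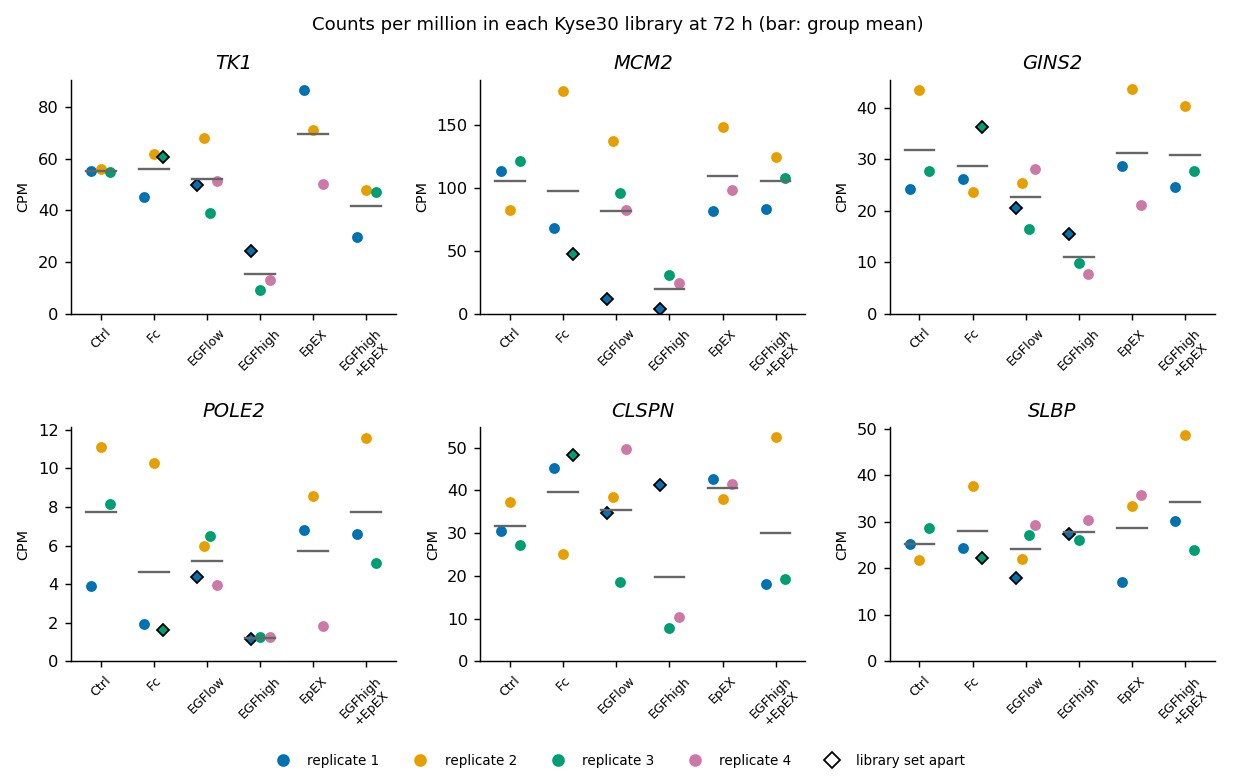
CPM (vertical axis, from 0) of 6 genes in each Kyse30 library of 72 h by condition (horizontal axis), coloured by replicate number, with bars for group means and outlined diamonds for libraries set apart. TK1, MCM2, GINS2 and POLE2 are low in all 3 EGFhigh libraries, CLSPN is at 41.3 CPM in replicate 1 and at 7.85 and 10.4 CPM in replicates 3 and 4, and SLBP lies between 21.8 and 30.3 CPM in Ctrl and EGFhigh.

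EGFhigh replicate 1 thus differed from replicates 3 and 4 in which members were low. RRM2 was 56.5 CPM in replicate 1 and 11.8 and 18.1 CPM in replicates 3 and 4, with Ctrl at 52.1, 48.1 and 49.5 CPM. MCM7 was 205 CPM in replicate 1 and 68.3 and 81.2 CPM in the others, with Ctrl at 199, 282 and 203 CPM. MCM2, in contrast, was lowest in replicate 1. Without the 4 libraries set apart, 21 members fell in place of 15, 12 of them shared, and the median was -1.30, while 452 genes fell in all in place of 485. CDC45, CDC6 and UHRF1 then no longer passed, and RRM2, CLSPN, E2F1, MCM4, MCM10, CDT1, RFC3, GINS4 and CHAF1B did. The count was 8 without EGFhigh replicate 3 (316 of all genes), 6 without Ctrl replicate 2 (250) and 8 in a fit of the 6 libraries alone (211), and none of the 15 genes changed sign in any of these. The fit of the 6 libraries alone lost POLE2, GINS1, LIG1, ORC6, MCM3, MCM5, MCM7 and UHRF1 and added PCNA. With each of the 6 libraries left out in turn, TK1, MCM2, GINS2, FEN1 and TYMS kept their call all 6 times, GINS1 and POLE2 5 times, ORC6, CDC45 and LIG1 4 times, and MCM3 and MCM7 3 times.

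In the related lists most calls were also downwards. Of 44 other replication genes, 10 fell and 1 rose (median -0.46). Those with the lowest p were TICRR, which brings CDC45 to the MCM ring (-2.61), TIMELESS, the partner of TIPIN (-1.40), and the histone chaperone ASF1B (-1.75), and the gene that rose was POLD4, a small subunit of polymerase delta. Of 22 genes of G1/S control 4 fell, namely CCNA2 (-1.82), MYBL2 (-1.60), FBXO5 (-1.55) and SKP2 (-1.60). Of 30 mitosis genes 21 fell (median -1.24), with CENPF at -2, CDK1 at -1.60 and TOP2A at -1.51, and of 26 genes of recombination and the Fanconi pathway 8 fell (median -1.02), with BLM at -1.71, RAD51AP1 at -1.75 and BRCA1 at -1.35. These counts stand against the 3.16% of all genes that fell.

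**Figure D4:**
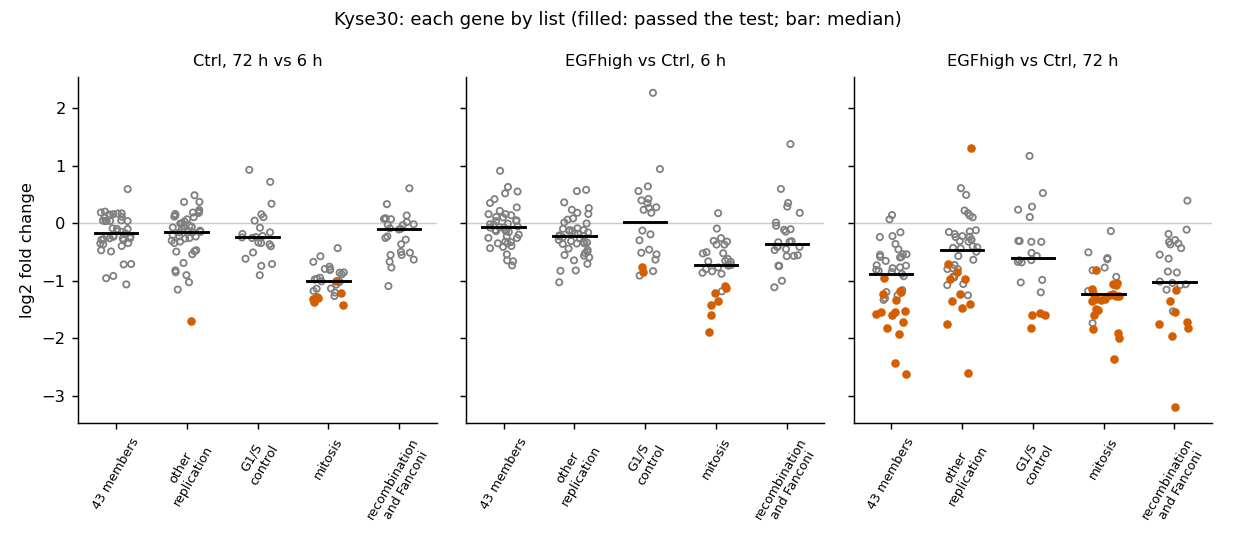
Log2 fold changes (vertical axis) of single genes by list (horizontal axis) in 3 Kyse30 comparisons, with filled points for genes that passed the test and bars for list medians. The replication genes have medians of -0.17, -0.07 and -0.88 from left to right, and the mitosis list -1.01, -0.72 and -1.24.

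Whether the answer depends on the EGF concentration was asked by comparing EGFhigh with EGFlow at 72 h. EGFlow itself gave 0 of 43 against Ctrl (0% of all genes, 0 members at an unadjusted p under 0.05, 0 by DESeq2) with a median of -0.08. Directly compared, 12 of 43 (27.9%) were lower in EGFhigh than in EGFlow, none was higher, and 1.71% of all genes were lower and 2.03% higher. TK1 was 49.9, 68.1, 39.2 and 51.6 CPM in EGFlow, above every EGFhigh library (log2 fold change -1.75, SE 0.25, adjusted p = 1.83e-05). GINS4 (-1.51, adjusted p = 0.0118) and GINS1 (-1.60, adjusted p = 0.0173) followed. In 17 members all EGFhigh libraries were below all EGFlow libraries (6.14% of all genes). The count was 15 without the 4 libraries set apart, where 199 genes were lower in all in place of 262, and 3 in a fit of the 2 groups alone, where 85 were. It was 1 without EGFlow replicate 2 (129 of all genes), 3 without EGFhigh replicate 3 (148), 4 without EGFhigh replicate 4 (205) and 7 without EGFlow replicate 4 (254).

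EpEX alone gave no called member at 72 h against Fc (0 of 43, 0% of all genes, 0 at an unadjusted p under 0.05, 0 by DESeq2), and its median was 0.04. When EpEX was given along with EGF, the comparison with Fc again gave 0 of 43 (0% of all genes, 0 at an unadjusted p under 0.05, 0 by DESeq2), although 33 had a negative sign and the median was -0.15. The 2 arms with EGF were therefore compared directly, with the same EGFhigh libraries as above. In EGFhigh/EpEX, 9 of 43 (20.9%) were higher than in EGFhigh and none lower, where 1.86% of all genes were higher and 1.72% lower, and the median was 0.76.

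TK1 was 29.9, 48.0 and 47.1 CPM in EGFhigh/EpEX, between the EGFhigh libraries (at most 24.3 CPM) and the Ctrl libraries (log2 fold change 1.41, SE 0.26, adjusted p = 7.34e-04 against EGFhigh). GINS2 was 24.6, 40.3 and 27.7 CPM (1.48, SE 0.32, adjusted p = 0.0036) and UHRF1 11.7, 21.7 and 10.3 CPM (2.04, SE 0.45, adjusted p = 0.00464), both within the range of Ctrl or above it. Neither GINS2 nor UHRF1 overlapped with EGFhigh. In all, 21 members were higher in all 3 libraries of EGFhigh/EpEX (10.7% of all genes). The count was 14 without the 4 libraries set apart, 2 without EGFhigh/EpEX replicate 2 and 1 in a fit of the 2 groups alone, which kept FEN1. Over all genes 286 were higher in the comparison, 274 without the 4 libraries, 117 without EGFhigh/EpEX replicate 2 and 91 in the fit of the 2 groups alone.

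Between 6 h and 72 h with EGFhigh, 22 of 43 fell (51.2%, against 6.25% of all genes) and the median was -1.18, beside the 0 of 43 and -0.17 of Ctrl over the same interval. TK1 went from 82.9, 63.9, 68.7 and 57.8 CPM to 24.3, 9.09 and 13.0 CPM (log2 fold change -2.13, SE 0.26, adjusted p = 3.62e-07), RRM2 changed by -1.90 (SE 0.37, adjusted p = 4.17e-04) and GINS1 by -2.07 (SE 0.42, adjusted p = 6.62e-04). In 23 members every library of 72 h was below every one of 6 h (10.2% of all genes). The count of genes that fell was 13 without EGFhigh replicate 3 and 14 without replicate 4 of 72 h, where 450 and 627 genes fell in all in place of 959. Without the 4 libraries set apart it was 29, where 1296 genes fell in all, and the median was -1.48. Of the 22 members 19 were kept there, and ORC1, POLE2 and RFC5 were lost. The difference between the effects at 72 h and 6 h was tested as an interaction. TK1 alone passed, with a difference of -1.42 (SE 0.35, adjusted p = 0.0311), where 0.515% of all genes were lower, and the median over the 43 was -0.84. This call was lost when any of 10 of the 13 libraries was left out, and it was kept without Ctrl replicate 1 of 6 h, EGFhigh replicate 4 of 6 h or EGFhigh replicate 1 of 72 h. Without the 4 libraries set apart, 8 members passed, and over all genes the number that were lower rose from 79 to 227.

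Between the controls Fc and Ctrl, 0 of 43 genes passed at 6 h and 0 at 72 h (0% of all genes in both, 3 and 0 members at an unadjusted p under 0.05, 0 by DESeq2 in both). A p above the threshold does not show that the controls were alike, and at 6 h UHRF1 was 28.7, 14.3 and 12.7 CPM in Fc and 8.34, 11.4 and 8 CPM in Ctrl (log2 fold change 1.00, SE 0.42).

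In FaDu at 6 h PRIM1, the catalytic subunit of primase, was lower after EGFlow, EGFhigh and EpEX. It was 35.4 and 26.1 CPM in Ctrl, 14.3 and 12.3 CPM in EGFlow and 15.8 and 8.04 CPM in EGFhigh, in replicates 3 and 4. It was 39.4 and 29.4 CPM in Fc and 15.1 and 11.1 CPM in EpEX. Every treated library was thus below every control library, and PRIM1 passed in each of the 3 comparisons, with log2 fold changes of -1.21 for EGFlow (SE 0.31, adjusted p = 0.0406), -1.36 for EGFhigh (SE 0.32, adjusted p = 0.0219) and -1.40 for EpEX (SE 0.32, adjusted p = 0.017). The EGF comparisons share the Ctrl libraries, and the EpEX comparison has its own Fc libraries. Within replicates 3 and 4, EGFhigh/EpEX at 6 h had only the library of replicate 3, which has no test. That library had 20.6 CPM of PRIM1, below every control library and above every other treated one.

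PRIM1 lies at chr12:56731596-56752373 on the minus strand, and NACA, a far more abundant gene (median 764 CPM in FaDu), overlaps its 3′ end on the same strand. NACA had log2 fold changes of -0.02, -0.16 and 0.02 in the 3 comparisons. At 72 h PRIM1 was 15.8 CPM in Ctrl and 18.8 and 23.2 CPM in Fc. It was 21.8 CPM in EGFlow, 15.8 CPM in EGFhigh and 18.1 and 22.4 CPM in EGFhigh/EpEX, all within the range of the controls. The EpEX library, at 25.4 CPM, lay above every control library of 72 h. With the FaDu libraries of replicates 1 to 4 in the fit, PRIM1 had -1.04, -1.33 and -1.02 and passed in none, and neither did any other gene tested in that fit (0 higher and 0 lower over all genes in each comparison). The PRIM1 call for EGFlow was lost without any 1 of its 4 libraries (log2 fold changes of -0.97 to -1.41). For EGFhigh it was lost without Ctrl replicate 3 (-1.12) or EGFhigh replicate 4 (-0.96) and in a fit of the 4 libraries alone, and for EpEX without Fc replicate 3 (-1.17) or EpEX replicate 4 (-1.19).

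In Kyse30 at 6 h, PRIM1 was 9.38, 8.27 and 6.87 CPM in Ctrl and 9.86, 6.67, 6.44 and 4.82 CPM in EGFhigh. The lines were compared by an interaction of the EGFhigh effect at 6 h, in which 0 of 43 passed (0.0611% of all genes, 0 members at an unadjusted p under 0.05, 0 by DESeq2). PRIM1 had a difference of 1.13 there (SE 0.68, adjusted p = 1).

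For EGFlow and EGFhigh in FaDu, PRIM1 was the only member called of 43, where 0.899% and 0.774% of all genes were lower, and the medians were -0.28 and -0.12. In 16 and 11 members both treated libraries were below both Ctrl libraries, where 22.1% and 20.5% of all genes were. EpEX against Fc gave 4 of 43 lower (9.3%, against 1.04% of all genes), all 43 had a negative sign, and the median was -0.52 against -0.01 over all genes. In 26 members both EpEX libraries were below both Fc libraries, where 20.1% of all genes were.

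Beside PRIM1, the 4 were ORC1, DSCC1 and RRM1. ORC1, the largest subunit of the origin recognition complex, was 27.6 and 26.8 CPM in Fc and 7.33 and 8.05 CPM in EpEX (-1.82, SE 0.42, adjusted p = 0.0208). DSCC1, part of the clamp loader used for cohesion, was 40.9 and 35.9 CPM in Fc and 22.7 and 11 CPM in EpEX (-1.21, SE 0.32, adjusted p = 0.0457). RRM1, the large subunit of ribonucleotide reductase, was 324 CPM in both Fc libraries and 212 and 200 CPM in EpEX (-0.65, SE 0.18, adjusted p = 0.048). Replicate 4 of EpEX was lower than replicate 3 for most of the set, with medians of -0.62 and -0.04 relative to Ctrl. Without replicate 4 of EpEX 0 members passed and the median was -0.24, and without replicate 3 of EpEX 9 passed, with a median of -0.73. Without replicate 3 or replicate 4 of Fc the counts were 0 and 1, and 2 in a fit of the 4 libraries alone. Over all genes 167 were lower, 59 and 141 without replicate 4 or 3 of EpEX, 80 and 53 without replicate 3 or 4 of Fc, and 42 in the fit of the 4 libraries. In the EGFhigh/EpEX library of 6 h from replicate 3, ORC1 was 28 CPM and DSCC1 36.6 CPM, beside 27.6 and 26.8, and 40.9 and 35.9 CPM in Fc. RRM1 was 282 CPM there, below the 324 CPM of both Fc libraries and above both EpEX libraries. CDT1, which was not called, was 71.2 CPM beside 58.2 and 82.8 CPM in Fc.

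**Figure D5:**
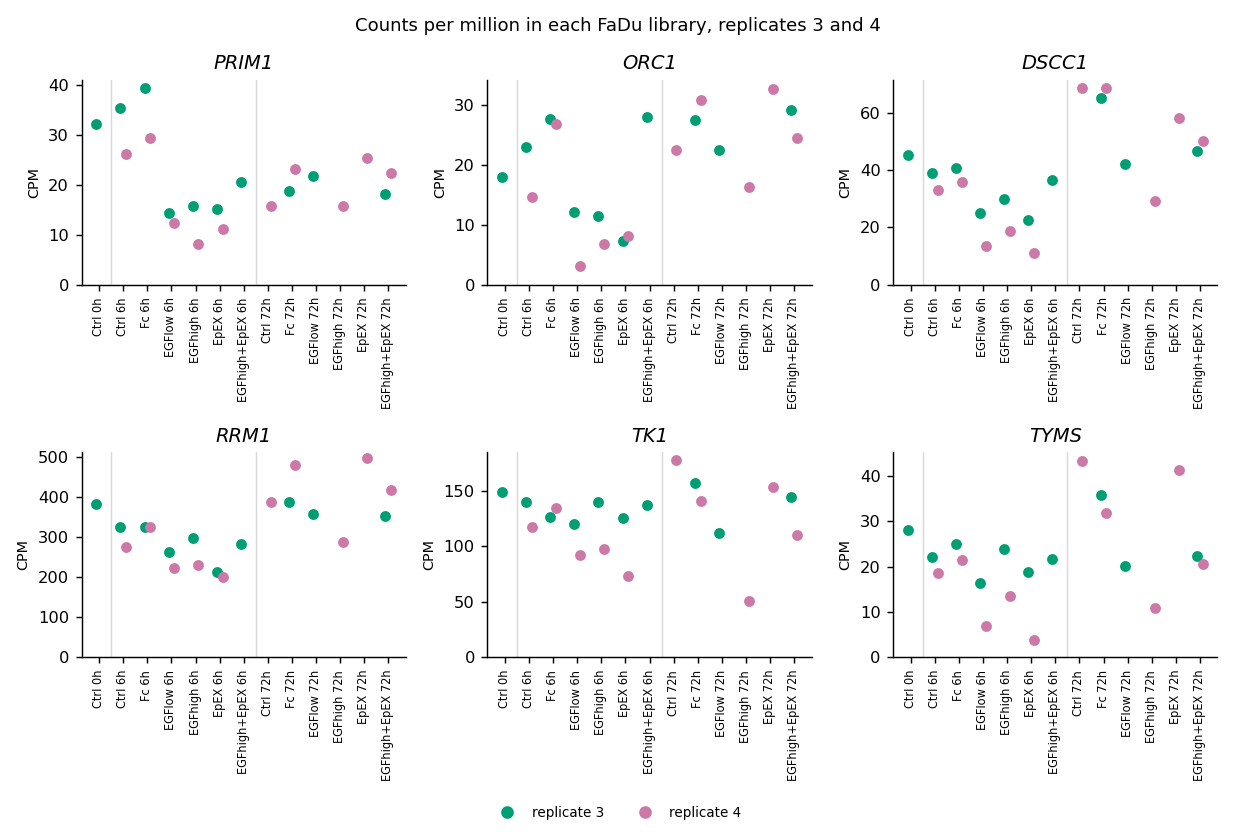
CPM (vertical axis, from 0) of 6 genes in each FaDu library of replicates 3 and 4 by condition and time (horizontal axis). PRIM1 lies between 8.04 and 15.8 CPM in the EGFlow, EGFhigh and EpEX libraries of 6 h and between 26.1 and 39.4 CPM in Ctrl and Fc, and TK1 at 72 h is 50.3 CPM in EGFhigh and 178 CPM in Ctrl.

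At 72 h in FaDu replicates 3 and 4 the only comparison with 2 libraries a side, EGFhigh/EpEX against Fc, gave 0 of 43 (0.818% of all genes, 0 at an unadjusted p under 0.05, 0 by DESeq2) and a median of -0.16. The sign was negative in 36 of the 43, against 50.8% of all genes, and in 19 both treated libraries were below both Fc libraries, against 20.9% of all genes. TYMS was 22.4 and 20.5 CPM in EGFhigh/EpEX and 35.8 and 31.9 CPM in Fc (log2 fold change -0.66, SE 0.48, adjusted p = 0.959). Between 6 h and 72 h in Fc, 0 of 43 passed (2.88% of all genes, 8 at an unadjusted p under 0.05, 0 by DESeq2).

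Within FaDu replicates 3 and 4, EGFhigh and Ctrl at 72 h had 1 library each, both of replicate 4. Their values are set side by side with no test and no check on replicates. The series also holds replicates 1 and 2 of both conditions, which were not compared here. Of the 43 genes 36 were lower in EGFhigh, where 52.4% of all 16022 genes were, and the median log2 ratio was -0.62, against -0.08 over all genes. A log2 ratio below -1 was found in 9 of the 43, a share near the 19.3% of all genes. LIG1 was 11.3 CPM in EGFhigh and 64.2 CPM in Ctrl, TYMS 10.9 and 43.2 CPM, and TK1 50.3 and 178 CPM. MCM2 was only a little lower, with 117 and 126 CPM. Other members stood level or above in the same pair of libraries, among them PRIM1 with 15.8 CPM in both and UHRF1 with 22.5 and 12.2 CPM. The EGFlow library of 72 h from replicate 3 had 112 CPM of TK1 and 20.2 CPM of TYMS.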

How the data were processed

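Total RNA of Kyse30 and FaDu cells was made into libraries with the QuantSeq 3′ FWD kit. The authors aligned reads with STAR to GRCh38 and deposited counts per Ensembl gene made with HTSeq (tools and build per the submitters' processing notes, versions and strand setting not given in the sources used here). The deposited counts were used as they are. Reads at no gene or at several places were left out of library sizes. They made up 5.3% to 15.3% and 24.6% to 43.6% of counted and unassigned reads together in Kyse30. Of 58395 gene IDs, 57754 had a symbol. The 20 FaDu libraries of replicates 3 and 4 and the 43 Kyse30 libraries entered 1 edgeR fit (4.0.16, R 4.3.3) each, and the interaction between lines a joint one. Genes were filtered with filterByExpr (count 10, total 15), scaled by TMM and tested by quasi-likelihood F test with Benjamini-Hochberg adjustment over all genes. Calls needed an adjusted p no higher than 0.05 and a log2 fold change beyond 0.5 in size. The standard error (SE) is the absolute log2 fold change divided by the square root of F. Log2 CPM used a prior count of 2. The tests were tried on simulated counts first.

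Genes named with every library were the member of lowest adjusted p in each role group for EGFhigh against Ctrl at 72 h, the 5 largest and 3 smallest absolute changes there. In other comparisons they were the genes called or, with more than 6 or none called, the 3 of lowest p. Genes shown beyond the rule (RRM2, MCM7, TYMS and others named for a separation between libraries) were picked after their values were seen. The members, lists and tests were chosen with earlier results of these data known. Promoters were matched by symbol. Loci and overlaps within the last 1000 bases came from GENCODE 29. Alternatives were DESeq2 (1.42.0), RLE scaling, no filter, a mean of 5 CPM, the compared groups alone, the replicate number as a block, other controls, all FaDu replicates and each library left out.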

Additional observations from a re-analysis of the deposited data

Results flagged for a closer look

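The effect of EGFhigh on TK1 differed between times in the fit of all Kyse30 libraries, with -1.42 as the log2 difference between the effects at 72 h and 6 h, a call lost without any of 10 of the 13 libraries and in a fit of the 4 groups alone. Within the 4 Kyse30 groups of 4 libraries, 8 of 172 combinations of gene and group had a library far from the other 3 by Dixon's criterion, where chance gives about 1 in 20. At 6 h these were MCM5 at 99.6 CPM in EGFhigh/EpEX replicate 3, CHAF1B at 3.64 CPM in EGFhigh/EpEX replicate 4, TIPIN at 30.6 CPM in EGFhigh/EpEX replicate 2, MCM7 at 180 CPM in EGFhigh replicate 4, POLA2 at 20.7 CPM in EGFhigh replicate 2, CDT1 at 68.7 CPM in EGFlow replicate 2 and GINS3 at 10.9 CPM in EGFlow replicate 3. At 72 h it was MCM5 at 62.9 CPM in EGFlow replicate 2.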

How the results depend on the processing

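The fall of the replication genes at 72 h with EGFhigh kept its direction in every alternative run, and 15 calls became 8 with the 2 groups alone (485 and 211 genes lower in all). Libraries left out in turn gave 6 to 19 calls there, 1 to 15 for EGFhigh against EGFlow, 2 to 10 for EGFhigh/EpEX against EGFhigh, 13 to 26 for EGFhigh between the times, 0 to 7 for the interaction, and in FaDu 0 to 1 for EGFlow, 0 to 1 for EGFhigh and 0 to 9 for EpEX. With no filter the counts were 21 for EGFhigh against EGFlow (377 of all genes, from 262), 15 for EGFhigh/EpEX against EGFhigh (437, from 286), 8 for the interaction (227, from 79), 2 for EGFhigh/EpEX at 6 h, 1 for Ctrl over time, and in FaDu 3 for EGFlow (252, from 144), 3 for EGFhigh (218, from 124), 8 for EpEX (285, from 167) and 2 for Fc over time. With the compared groups alone they were 3 for EGFhigh against EGFlow, 1 for EGFhigh/EpEX against EGFhigh, 0 for the interaction and 1 for Ctrl over time, and in FaDu 0 for EGFhigh, 2 for EpEX and 2 for Fc over time. DESeq2 called 2 in the interaction, and a mean of 5 CPM gave 2 for EGFhigh in FaDu. All 4 FaDu replicates gave 0 for EGFlow, EGFhigh and EpEX, as they did over all genes. Without the 4 libraries set apart, an alternative chosen after seeing the data, EGFhigh/EpEX against EGFhigh gave 14 and the interaction 8 (227 of all genes). With the replicate number as a block, 13 members fell with EGFhigh at 72 h (12 of the 15, without CDC6, MCM5 and UHRF1 and with MCM10 added), 14 against EGFlow, 7 were higher with EpEX, 24 fell over time with EGFhigh, and in FaDu 3 fell with EGFlow and 5 with EpEX. Deviations from the group means of same-numbered libraries had a mean correlation of 0.0633 in Kyse30 (lowest -0.1307) and 0.0713 in FaDu (lowest -0.0362). Differently numbered libraries had -0.0216 and -0.0713, and in FaDu centring groups of 2 libraries forces the mirrored value. These values over all genes tested do not decide whether same-numbered libraries were paired. The main fits used no block. The share of promoters with E2F-type letters was 86.1% with the 7-letter forms (15.3% of all genes). The cause of these differences was not tested. Depth limits genes of a few CPM, such as POLE2 and PRIM1 in Kyse30.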
